A study of Mus musculus with 30 samples.

Results

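Transcript levels of 10 genes that mark maturing and mature neutrophils were followed through sorted stem and progenitor cells of mouse bone marrow. The genes were Ltf, Camp, Ngp, Lcn2, Chil3, Mmp8, S100a8, S100a9, Retnlg and Cxcr2, taken by symbol from 2 deposited count tables that each list 55471 genes. They are called the neutrophil genes here, since 4 of the 10 do not code for classical granule contents: S100a8 and S100a9 are mainly cytosolic, Retnlg is a secreted hormone-like protein and Cxcr2 is a surface receptor. Each was found in both tables, and all 10 passed the filter on low counts in both.

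The mice were C57BL/6 and received either MTP10-HDL, a lipoprotein (HDL) particle loaded with muramyl tripeptide, a bacterial wall fragment that acts on the receptor Nod2, or phosphate-buffered saline (PBS). Hematopoietic stem cells (HSCs) gave 6 MTP10-HDL and 7 PBS libraries, and multipotent progenitors (MPPs) gave 3 MTP10-HDL and 2 PBS libraries. Each library was a pool of 4 mice, so the spread given below is the spread between pools. The labels of the MPP libraries give 3 injections within 5 days, killing on the following day, magnetic lineage depletion and flow sorting of both populations. The labels give neither the surface gates nor the ages of the mice, and no injection schedule for the HSC libraries.

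Neutrophils fill their granules in sequence as they mature. Promyelocytes make the primary (azurophilic) granule enzymes such as myeloperoxidase, and myelocytes and metamyelocytes later make the specific and gelatinase granule proteins such as lactoferrin and collagenase. The receptor Cxcr2 and other genes of the late stages follow. The factor C/EBPε drives the specific granule genes, and PU.1 acts at many myeloid promoters. Stem cells and multipotent progenitors stand upstream of this sequence, and lineage depletion is meant to take mature neutrophils out of the sample.

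The genes lie on 5 chromosomes of the mouse genome (GRCm38.p6 coordinates from RefSeq, all 10 symbols matched). Ltf is at chr9:111019292-111042766, Ngp at chr9:110419808-110423012 and Camp at chr9:109847377-109849456. Camp and Ngp code for related cathelicidin-family proteins, and 570351 bases separate them. S100a8, at chr3:90669071-90670034, and S100a9, at chr3:90692630-90695721, code for the subunits of calprotectin and lie 22.6 kb apart. The others are Mmp8 at chr9:7558429-7568486, Chil3 at chr3:106147554-106167564, Lcn2 at chr2:32384637-32387739, Cxcr2 at chr1:74153994-74161246 and Retnlg at chr16:48872608-48874498.

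The 250 bases before each start were searched for 3 motifs on both strands. These were the C/EBP letters TTGCNNAA, the PU.1 letters GAGGAAGT and the TATA letters TATAAA. The C/EBP letters occurred before 6 of the 10 genes (Ltf, Ngp, Lcn2, S100a9, Mmp8 and Retnlg), against 9.56% of 32851 RefSeq promoter windows of the same length. The PU.1 letters occurred before S100a8 and Mmp8, against 2.44% of windows, and the TATA letters before S100a8 alone, against 12.4%. Windows before Camp, Chil3 and Cxcr2 held none of the 3, which says only that these letters are not in those windows. The 4 windows below are shown because they carry each motif: Ngp has the C/EBP letters in both orientations, Ltf once, Mmp8 C/EBP and PU.1 letters, and S100a8 PU.1 and TATA letters. Each runs 5′ to 3′ on the gene's own strand, here the plus strand for all 4, and ends 1 base before the start. Capitals mark the motif letters, no 2 matches overlap, and a match is not evidence of binding.
Ngp, chr9:110419558-110419807: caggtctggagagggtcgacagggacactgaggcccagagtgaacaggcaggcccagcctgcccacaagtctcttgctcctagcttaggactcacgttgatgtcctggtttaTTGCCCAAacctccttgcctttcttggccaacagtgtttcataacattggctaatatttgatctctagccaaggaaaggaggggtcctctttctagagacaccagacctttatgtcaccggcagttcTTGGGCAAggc
Ltf, chr9:111019042-111019291: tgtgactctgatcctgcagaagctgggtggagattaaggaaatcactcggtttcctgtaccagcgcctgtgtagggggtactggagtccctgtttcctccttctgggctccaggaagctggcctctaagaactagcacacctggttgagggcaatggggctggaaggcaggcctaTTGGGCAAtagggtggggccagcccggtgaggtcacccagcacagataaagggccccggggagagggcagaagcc
Mmp8, chr9:7558179-7558428: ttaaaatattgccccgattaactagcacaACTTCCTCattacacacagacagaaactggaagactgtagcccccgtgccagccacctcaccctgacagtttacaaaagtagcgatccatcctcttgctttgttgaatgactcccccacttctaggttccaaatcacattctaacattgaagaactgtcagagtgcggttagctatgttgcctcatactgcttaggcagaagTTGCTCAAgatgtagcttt
S100a8, chr3:90668821-90669070: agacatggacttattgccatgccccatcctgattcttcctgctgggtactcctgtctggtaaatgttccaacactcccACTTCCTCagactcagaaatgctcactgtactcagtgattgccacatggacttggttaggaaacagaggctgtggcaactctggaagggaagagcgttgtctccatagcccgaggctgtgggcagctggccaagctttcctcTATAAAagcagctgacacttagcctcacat
Counted from the start, the first base of the match was at -138 and -11 in Ngp, at -75 in Ltf and, for C/EBP, at -19 in Mmp8. The PU.1 letters began at -221 in Mmp8 and at -172 in S100a8, whose TATA letters began at -30.

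HSC libraries held 4064155 to 7879858 counts and MPP libraries 11252479 to 32769369. All 11 stem and progenitor markers were read in every library of both tables. In HSCs their summed level ran over 1730 to 2880 CPM (counts relative to the library total, after TMM scaling) with MTP10-HDL and 1880 to 3470 CPM with PBS. In MPPs it was 3290 to 3430 CPM with MTP10-HDL and 3460 to 3720 CPM with PBS. HSC libraries also differed in detected genes and in ribosomal RNA share, in 3 sets that each held both treatments. The 2 tables came from different library kits, so levels are compared within a table only.

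In HSCs the neutrophil genes were present in every library, at levels that differed far more between libraries of 1 treatment than between treatments. Their summed level was 5970, 997, 2340, 1190, 656 and 3420 CPM in MTP10-HDL libraries 1 to 6. In PBS libraries 1 to 7 it was 2200, 470, 1810, 114, 4030, 817 and 150 CPM. The range over all 13 libraries was 52.4-fold, and the groups overlapped, with PBS 5 above 5 of the 6 MTP10-HDL libraries. As a share of all counts, the sum reached 0.564% in MTP10-HDL 1 (95% Wilson interval 0.559 to 0.57) and 0.433% in PBS 5 (0.427 to 0.439). It was 0.0168% (0.0155 to 0.0181) in PBS 7 and 0.0115% (0.0108 to 0.0123) in PBS 4. These intervals cover counting error only, and they are narrow against the differences between libraries. In pooled cells, fewer cells of a type and less RNA per cell cannot be told apart.

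**Figure D1:**
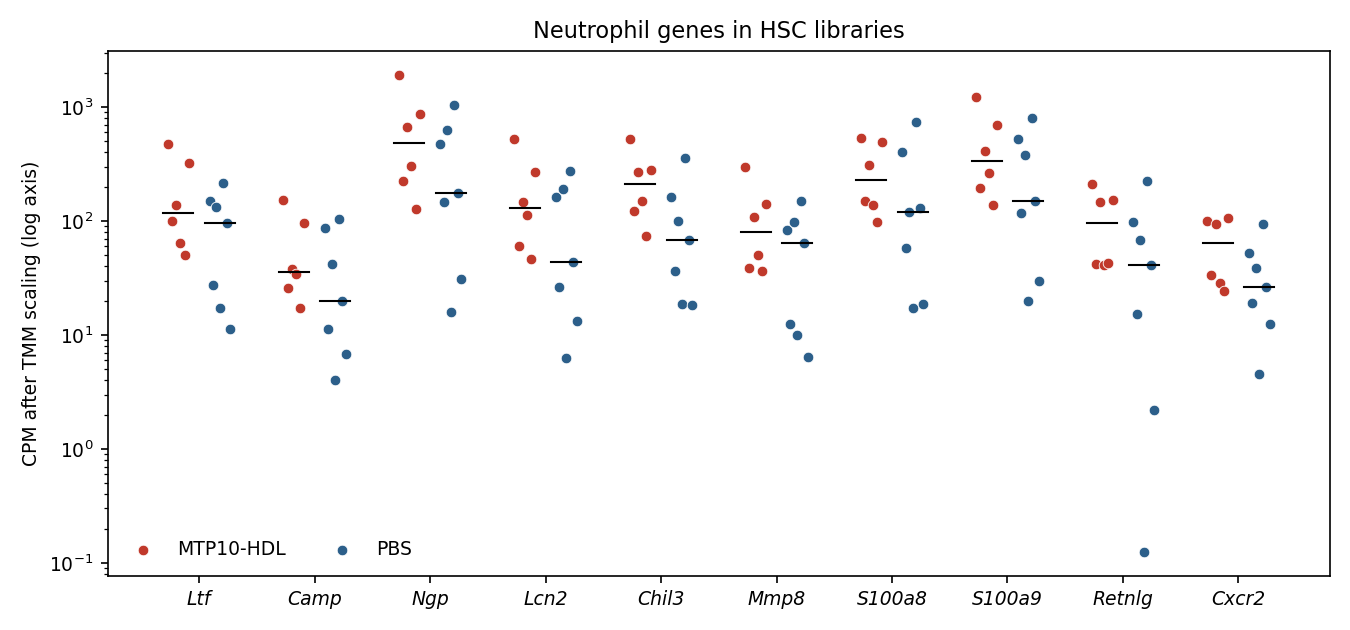
Levels of the 10 neutrophil genes in 6 MTP10-HDL (left, red) and 7 PBS (right, blue) HSC libraries, in CPM after TMM scaling on a log axis; each point is 1 library and each bar the group median. The groups overlap for every gene, and the lowest points of each gene belong to PBS libraries 4 and 7.

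Among the specific granule proteins, Ltf (ENSMUSG00000032496), the iron-binding lactoferrin, ran over 50.7, 118 and 471 CPM (lowest, median, highest) with MTP10-HDL. With PBS it ran over 11.4, 95.4 and 218 CPM. Only MTP10-HDL 1 and 6 lay above every PBS library. The fitted log2 fold change, MTP10-HDL over PBS, was 1.04 (SE 0.64), and it did not pass the threshold of a false discovery rate (FDR) of 0.05 (edgeR quasi-likelihood test with Benjamini-Hochberg adjustment over 16631 genes, FDR 0.639). Camp (ENSMUSG00000038357), which codes for the precursor of the antimicrobial peptide CRAMP, ran over 17.2, 35.8 and 154 CPM with MTP10-HDL, against 4.02, 19.8 and 104 CPM with PBS. Its groups overlapped almost throughout, with a log2 fold change of 0.63 (SE 0.67, edgeR FDR 0.781). Ngp, the neutrophilic granule protein related to cathelicidins and cystatins, ran over 128, 487 and 1930 CPM with MTP10-HDL, against 15.8, 177 and 1050 CPM with PBS. Its 5 highest libraries were 3 with MTP10-HDL and 2 with PBS, and its log2 fold change was 0.93 (SE 0.77, edgeR FDR 0.726).

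Lcn2, lipocalin 2, which withholds iron from bacteria by binding their siderophores, ran over 46.6, 130 and 528 CPM with MTP10-HDL, against 6.27, 43.4 and 275 CPM with PBS. All 6 MTP10-HDL libraries lay above the PBS median, yet 3 PBS libraries lay above the MTP10-HDL median (log2 fold change 0.91, SE 0.73, edgeR FDR 0.716). Chil3, the chitinase-like lectin Ym1, ran over 74.2, 211 and 520 CPM with MTP10-HDL, against 18.3, 68 and 357 CPM with PBS. It had the largest fold change of the 10, a log2 value of 1.12 (SE 0.61), at an edgeR FDR of 0.589 and a 2-sided exact permutation p of 0.0659 over the libraries. Chil3 has a close paralog, Chil4, and the labels do not say how reads that match both were counted. Mmp8, the neutrophil collagenase, ran over 36.2, 79.5 and 299 CPM with MTP10-HDL, against 6.38, 63.7 and 151 CPM with PBS. Only 3 of its MTP10-HDL libraries lay above the PBS median, and the log2 fold change of 0.88 (SE 0.66, edgeR FDR 0.693) was 0.31 without MTP10-HDL 1.

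S100a8 and S100a9 code for the calcium-binding subunits of calprotectin. S100a8 ran over 98.4, 230 and 532 CPM with MTP10-HDL, against 17.3, 119 and 742 CPM with PBS. Its highest library was PBS 5, and it had the smallest log2 fold change of the 10, at 0.44 (SE 0.71, edgeR FDR 0.86). S100a9 ran over 138, 340 and 1230 CPM with MTP10-HDL, against 19.7, 151 and 809 CPM with PBS (log2 fold change 0.75, SE 0.7, edgeR FDR 0.756). The ratio of S100a8 to S100a9 CPM varied less than either gene, over 0.433 to 0.756 with MTP10-HDL and 0.312 to 0.917 with PBS.

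Retnlg, resistin-like gamma, ran over 41, 95.5 and 210 CPM with MTP10-HDL, against 0.125, 41.3 and 224 CPM with PBS. It was the most variable of the 10, since PBS 4 held 1 Retnlg count among 7879858 and PBS 7 held 10, while no MTP10-HDL library held fewer than 231. Its log2 fold change was 0.73 (SE 0.84, edgeR FDR 0.802). Cxcr2, the receptor for CXC chemokines that draws neutrophils out of the marrow, was the least variable, with 24.1, 63.5 and 106 CPM under MTP10-HDL, against 4.52, 26.2 and 93.6 CPM under PBS. Its MTP10-HDL libraries fell apart into 3 at 93.4 to 106 CPM and 3 at 24.1 to 33.7 CPM, and 6 of the 7 PBS libraries lay below the higher 3 (log2 fold change 0.87, SE 0.53, edgeR FDR 0.639).

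None of the 10 genes changed at an FDR of 0.05 in HSCs, where the background was 0% of the 16631 genes tested. None reached an unadjusted p under 0.05 either, as 4.36% of genes did in the higher direction. All 10 fold changes were above 0, against 47.7% of genes tested, and their median was 0.88, against -0.02 over all genes. The 10 directions are not 10 observations, because the genes rise and fall in the same libraries. The 2-sided exact permutation p for single genes, over all arrangements of the libraries, ran from 0.0659 (Chil3) to 0.251 (Camp). The size rested on few libraries. Leaving out MTP10-HDL 1 brought the median down to 0.31, and leaving out PBS 5 brought it to 1.36. Within the 3 technical sets of libraries, the differences in mean log2 CPM were above 0 for every gene, from 0.68 to 3.56. Each set held 2 MTP10-HDL and 2 or 3 PBS libraries. The PBS libraries with the lowest sums, PBS 4 (114 CPM), PBS 7 (150 CPM) and PBS 2 (470 CPM), fell in different sets. The PBS mean of every set therefore included a low library, and the sets are weak evidence of a shared direction.

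**Figure D2:**
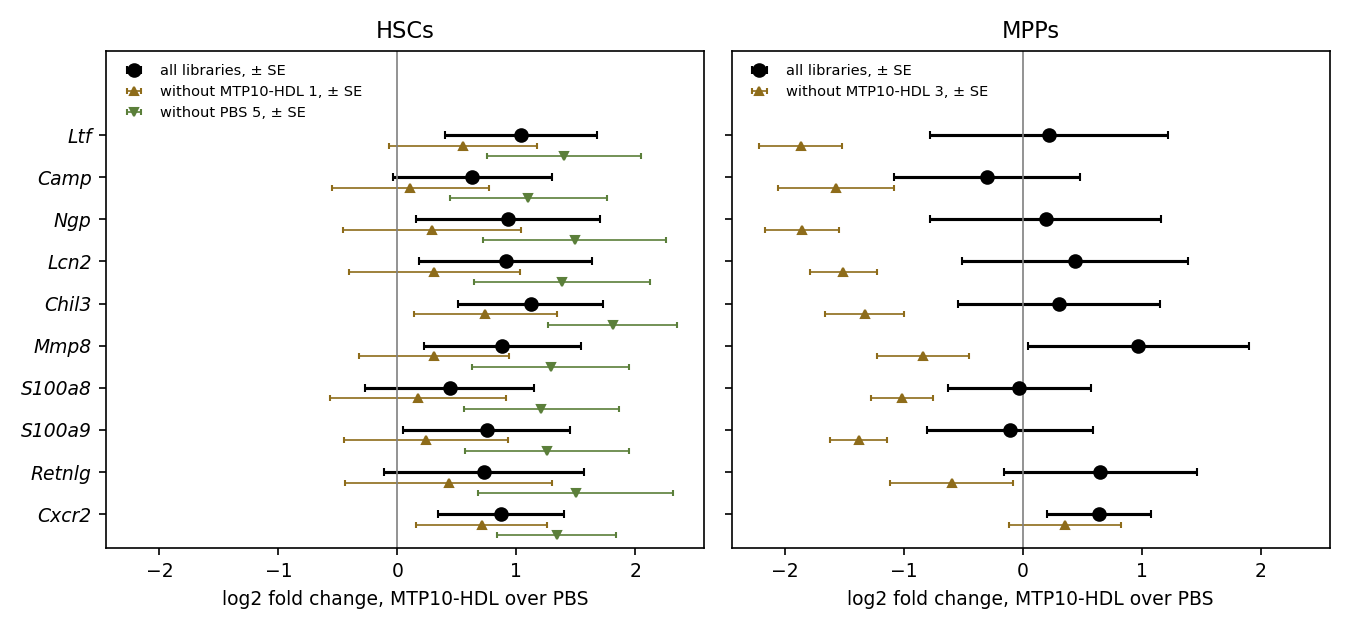
Log2 fold changes of the 10 neutrophil genes, MTP10-HDL over PBS, with bars of 1 SE, in HSCs (left panel) and MPPs (right panel), from all libraries (black) and without single libraries (coloured). HSC values stay above 0 and move with MTP10-HDL 1 and PBS 5, while 9 of 10 MPP values lie below 0 once MTP10-HDL 3 is left out.

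The 10 genes kept nearly the same order of libraries. MTP10-HDL 1, MTP10-HDL 6 and PBS 5 were the highest 3 libraries for all 10, and PBS 4 and PBS 7 the lowest 2 for all 10. Over the 13 libraries, Pearson's r of log2 CPM between pairs of genes lay between 0.90 (Ltf with Retnlg) and 0.99 (Ngp with S100a9), with a median of 0.95 over 45 pairs. Spearman's rho lay between 0.90 and 0.99. The largest permutation p among the 45 was 3e-05 for r and 0.00012 for rho, before and after Benjamini-Hochberg adjustment. Without the 2 libraries farthest from the median, r was still 0.85 to 0.98. Levels had standard deviations of 1.32 (Cxcr2) to 2.6 (Retnlg) on the log2 scale, while the ratio of 2 genes had a median standard deviation of 0.62. For the 9 genes other than Retnlg, the highest library exceeded the lowest by 23.5-fold (Cxcr2) to 122-fold (Ngp).

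The genes outside the 10 whose levels were most like theirs, among 9687 with a mean of at least 10 CPM, were Fpr1 (r = 0.959 with the mean profile of the 10), Mmp9 (0.954), Ifitm6 (0.953), Cd177 (0.943), Sorl1 (0.937), Fpr2 (0.933), Pglyrp1 (0.925), Ncf1 (0.916), Msrb1 (0.908) and Anxa2 (0.902). Fpr1 and Fpr2 are formyl peptide receptors, Mmp9 is the gelatinase of tertiary granules, Cd177 a neutrophil surface protein, Pglyrp1 a granule protein that binds peptidoglycan, and Ncf1 a subunit of the NADPH oxidase. Sorl1 is a sorting receptor, Msrb1 a methionine sulfoxide reductase and Anxa2 a membrane-binding annexin. These values are descriptions over the 13 libraries, and 9 of the 10 genes stayed among the 10 most alike without MTP10-HDL 1. None of the 10 passed the FDR threshold between treatments, and their log2 fold changes lay between 0.52 (Fpr1) and 1 (Fpr2).

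Primary granule genes, made at an earlier stage of the same lineage, were mostly highest in another library. Ngp was the yardstick for this comparison, since it drew the most counts of the 10 and so had the smallest counting error. Over the 13 HSC libraries, 69 genes of 6 lists were set against it, with adjustment over these 69. The share of all tested genes related to Ngp was not computed. Counts of related genes here and below therefore compare the lists with each other, not with all genes. Of 13 other late granule and oxidase genes, 12 were related to Ngp at an adjusted permutation p under 0.05 by both r and rho, with a median r of 0.84. Of 7 primary granule genes, none was by both measures, and their median r was 0.33, or -0.03 without the 2 libraries whose Ngp level was farthest from the median. Mpo, myeloperoxidase, had r = 0.16 (adjusted permutation p = 0.67) and rho = 0.08 (0.82). Elane, neutrophil elastase, had r = 0.39 (adjusted permutation p = 0.24), and Ctsg, cathepsin G, had r = 0.08 (0.81). Ctsc, which activates these proteases, was the exception by r alone, at 0.67 (adjusted permutation p = 0.031) with rho = 0.47 (0.18).

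Of the 7 primary granule genes, 6 were highest in MTP10-HDL 4, a library in the middle of the order for the neutrophil genes, with 302 CPM of Ngp. Mpo reached 2870 CPM there and was lowest, at 435 CPM, in MTP10-HDL 1, the library with the most Ngp. Ctsg and Prss57 were also lowest in MTP10-HDL 1, Ms4a3 in MTP10-HDL 2, Elane in PBS 4, and Prtn3 and Ctsc in PBS 7. The last 2 libraries were also the lowest 2 for the neutrophil genes. The summed level of the 7 genes varied 5.64-fold over the HSC libraries, against 52.4-fold for the 10 neutrophil genes. All 7 had fold changes above 0, but 6 were highest in the same library, so the 7 directions are not separate observations. None passed the threshold. The smallest p was that of Ctsc, with 135 ± 132 CPM under MTP10-HDL (SD, n = 6) and 74.6 ± 36.1 CPM under PBS (SD, n = 7), a log2 fold change of 0.85 (SE 0.43, edgeR FDR 0.574).

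**Figure D3:**
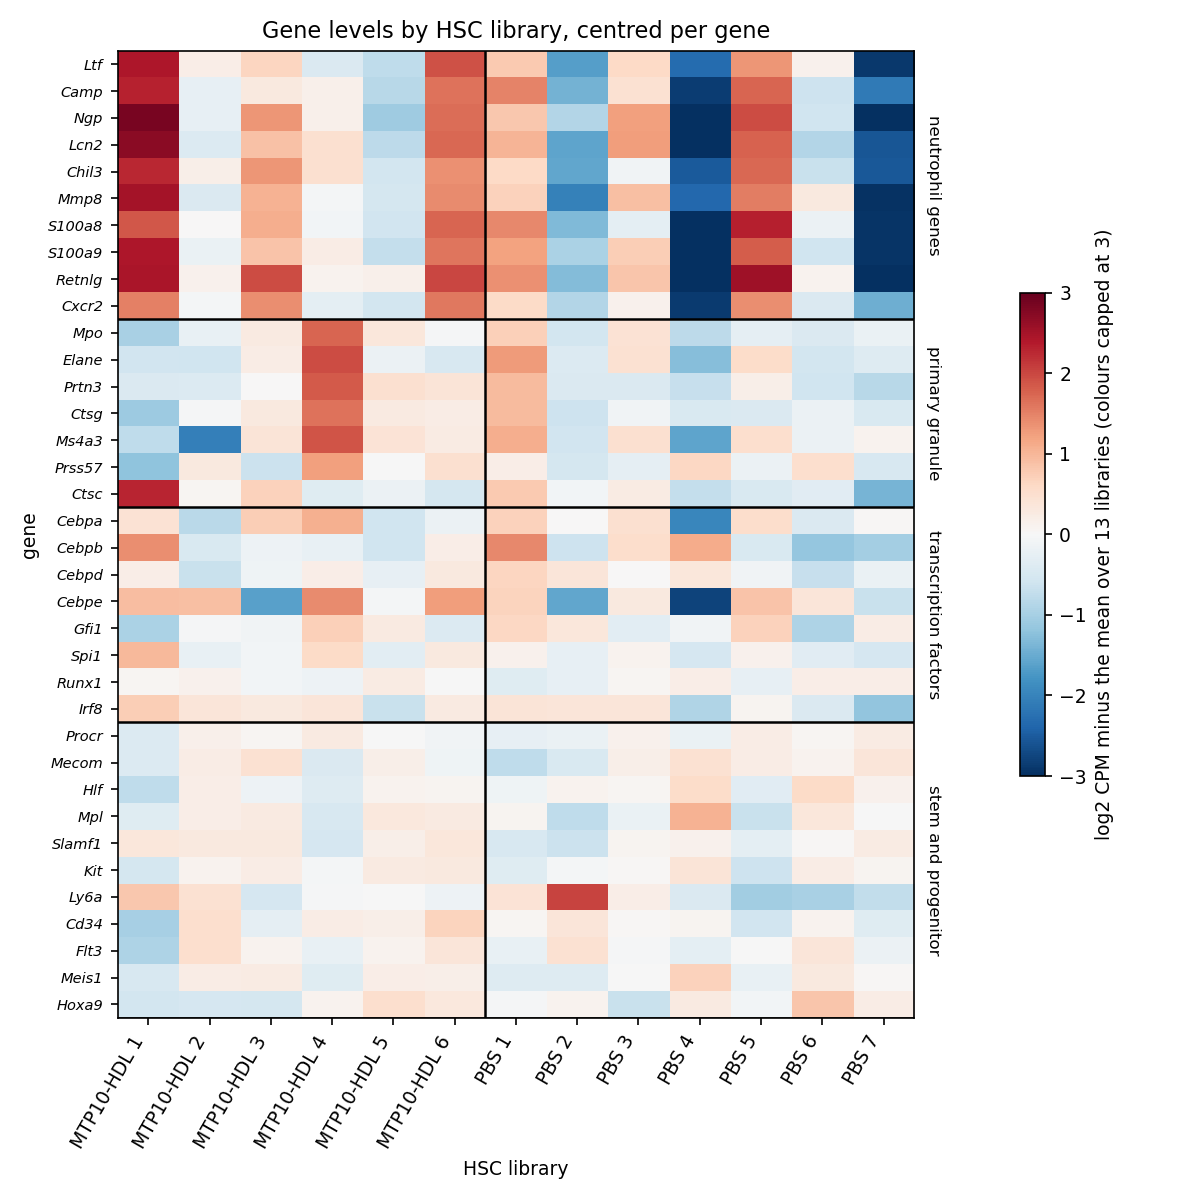
Log2 CPM of the 10 neutrophil genes, 7 primary granule genes, 8 transcription factors and 11 stem and progenitor markers in 13 HSC libraries (MTP10-HDL left, PBS right), each gene centred on its mean over the libraries and colours capped at 3. The neutrophil genes peak in MTP10-HDL 1, MTP10-HDL 6 and PBS 5, whereas 6 of 7 primary granule genes peak in MTP10-HDL 4.

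Transcription factors of the lineage differed in how much they varied over the HSC libraries. Runx1 spanned 1.5-fold, Cebpd 2.74-fold, Spi1 2.81-fold, Gfi1 3.24-fold, Irf8 3.84-fold, Cebpb 7.74-fold and Cebpa 8.89-fold. Of the 8 factors, 4 were related to Ngp by r at an adjusted permutation p under 0.05, and 1 by both r and rho. That 1 was Spi1, which codes for PU.1 (r = 0.79, adjusted permutation p = 0.0054, and rho = 0.85, 0.0031). Irf8, a factor that favours monocytes over neutrophils, had r = 0.84 (adjusted permutation p = 0.0022) and rho = 0.59 (0.078). Cebpa, which starts the granulocyte program, had r = 0.68 (adjusted permutation p = 0.026) and rho = 0.56 (0.095). Cebpe, the C/EBPε gene, was read at 5.68 CPM at most (MTP10-HDL 4) and at 0 in PBS 4, and had r = 0.64 (adjusted permutation p = 0.036) and rho = 0.58 (0.079). Without the 2 libraries farthest from the median its r was 0.31. Gfi1, a repressor needed for neutrophil formation, had r = -0.17 (adjusted permutation p = 0.66). None of the 8 passed the threshold between treatments, with the smallest p at Spi1, a log2 fold change of 0.43 (SE 0.21, edgeR FDR 0.57).

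Among the stem and progenitor markers, Hlf, a transcription factor of stem cells, was the 1 gene of 11 related to Ngp. The relation ran the other way (r = -0.72, adjusted permutation p = 0.018, and rho = -0.77, 0.012), and r was -0.7 without the 2 farthest libraries. Other markers of mature cells moved in part with the neutrophil genes. The 15 monocyte and macrophage markers summed to 4270 CPM in MTP10-HDL 1 but to 396 CPM in MTP10-HDL 6, although both libraries were among the highest 3 for the neutrophil genes. Over the groups that sum was 396 to 4270 CPM with MTP10-HDL and 294 to 2960 CPM with PBS, and 5 of the 15 markers were related to Ngp by both measures. None of the 15 was at 0 in any HSC library. Their part in the levels of the neutrophil genes was not tested.

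Other neutrophil genes were also compared between treatments in HSCs. Of the 13 other late granule and oxidase genes, 12 had fold changes above 0 and none passed the threshold (Cd177 0.97, SE 0.59, and Pglyrp1 0.72, SE 0.47, on the log2 scale, edgeR FDR 0.639 and 0.659). Their median was 0.55, against -0.02 over all genes. Of 15 tested genes of neutrophil receptors and effectors, 14 had fold changes above 0, against 47.7% of all genes. In the higher direction 3 reached an unadjusted p under 0.05, against 4.36% of all genes, and none an FDR of 0.05. By both r and rho, 12 of the 13 and 11 of the 15 were related to Ngp, so directions within these lists are not separate observations. Csf3r, the receptor for G-CSF, averaged 123 ± 26.7 CPM with MTP10-HDL and 92.9 ± 21 CPM with PBS (log2 fold change 0.4, SE 0.17, edgeR FDR 0.518).

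Markers of 2 other lineages leaned towards PBS in HSCs. All 8 tested erythroid markers had fold changes below 0, where 47.7% of all genes were above 0. Of the 8, 6 had an unadjusted p under 0.05, as did 4.47% of all genes in that direction. The sum of the erythroid list was 312 to 558 CPM with MTP10-HDL and 550 to 1100 CPM with PBS. All 8 tested B cell markers also lay below 0, 6 of them at an unadjusted p under 0.05, with sums of 40.2 to 97.5 CPM with MTP10-HDL and 36.4 to 407 CPM with PBS. Of the B cell markers, 4 were highest in PBS 2 and 4 in PBS 5. Of the erythroid markers, 4 were highest in PBS 5 and 3 in PBS 3. Genes of a list are thus not separate observations. None of these markers passed the FDR threshold, and their part in the neutrophil genes was not tested.

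In MPPs, 8 of the 10 genes were lower in MTP10-HDL 1 and 2 than in both PBS libraries, and all 10 were highest in MTP10-HDL 3. Their summed level was 254, 297 and 1750 CPM in MTP10-HDL 1, 2 and 3, against 811 and 633 CPM in PBS 2 and 3. MTP10-HDL 3 held fewer counts (17555267) than MTP10-HDL 1 and 2 (32769369 and 30506148), and more than PBS 2 and 3 (14691375 and 11252479).

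**Figure D4:**
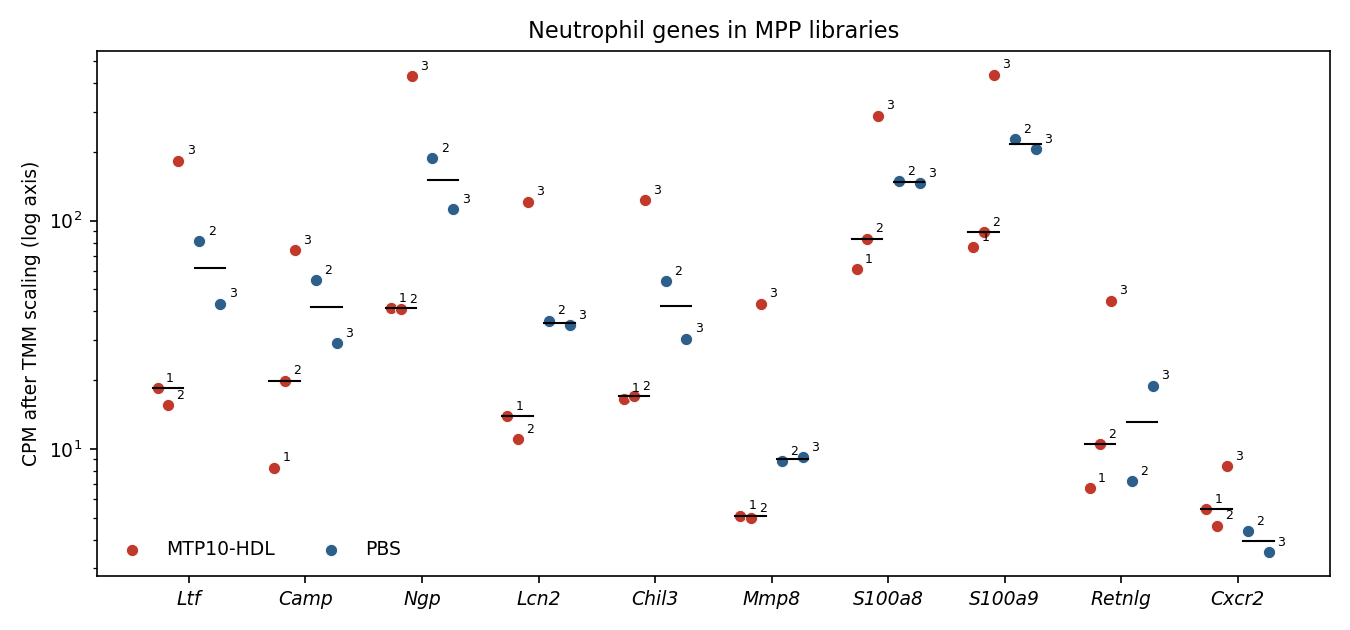
Levels of the 10 neutrophil genes in 3 MTP10-HDL (left, red) and 2 PBS (right, blue) MPP libraries, in CPM after TMM scaling on a log axis, with each point numbered by its library and bars for group medians. MTP10-HDL 3 is the highest library for each gene, and PBS libraries lie between it and MTP10-HDL 1 and 2 for most genes.

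Ltf had 18.5, 15.5 and 183 CPM in MTP10-HDL libraries 1, 2 and 3, against 81 and 43.3 CPM in PBS libraries 2 and 3. Ngp had 41.5, 40.9 and 431 CPM with MTP10-HDL, against 188 and 112 CPM with PBS. Lcn2 had 13.9, 11 and 121 CPM with MTP10-HDL, against 36.5 and 34.9 CPM with PBS. For these genes both PBS values lay inside the MTP10-HDL range. Chil3 had 16.6, 17 and 123 CPM with MTP10-HDL, against 54.2 and 30.4 CPM with PBS. Camp had 8.28, 19.9 and 74.2 CPM with MTP10-HDL, against 54.8 and 29 CPM with PBS. Mmp8 had 5.1, 4.97 and 43.3 CPM with MTP10-HDL, against 8.85 and 9.2 CPM with PBS. These granule genes followed the same order, with both PBS libraries above MTP10-HDL 1 and 2 and below MTP10-HDL 3.

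The calprotectin genes had the smallest distance between libraries after Cxcr2. S100a8 had 61.4, 83.3 and 288 CPM with MTP10-HDL, against 149 and 146 CPM with PBS. S100a9 had 76.5, 89.1 and 436 CPM with MTP10-HDL, against 227 and 206 CPM with PBS. Retnlg departed from this order, with 6.72, 10.5 and 44.6 CPM under MTP10-HDL, against 7.21 and 18.9 CPM under PBS, so that PBS 2 lay between MTP10-HDL 1 and 2. Cxcr2 had 5.45, 4.61 and 8.42 CPM with MTP10-HDL, against 4.35 and 3.54 CPM with PBS. It was the 1 gene of the 10 whose groups did not overlap, higher with MTP10-HDL, as did 12% of the 15449 genes tested in that direction. Cxcr2 levels spanned 2.38-fold over the MPP libraries, while the other 9 genes spanned 4.68-fold (S100a8) to 11.8-fold (Ltf).

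None of the 10 changed in MPPs at an FDR of 0.05 or at an unadjusted p under 0.05 (edgeR quasi-likelihood test). The background was 0% of genes at an FDR of 0.05 and 2.17% higher and 4.06% lower at the unadjusted p. Of the 10 fold changes, 7 were above 0 and 3 below, where 52% of all genes were above 0, and the median was 0.26. With limma voom, 2 were above 0 and 8 below (median -0.52), and without PBS 3, 4 were above and 6 below. The largest log2 fold changes were Mmp8 0.97 (SE 0.93, edgeR FDR 0.909), Retnlg 0.65 (SE 0.81, FDR 0.936) and Cxcr2 0.64 (SE 0.44, FDR 0.875), and the smallest was Camp -0.3 (SE 0.78, FDR 0.975). With 10 arrangements of the libraries, an exact permutation p cannot go below 0.1. For 9 of the 10 genes, Cxcr2 apart, the MTP10-HDL median lay below the PBS median, and for 6 of those 9 the MTP10-HDL mean lay above the PBS mean.

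MTP10-HDL 3 set the direction. Without it, 9 of the 10 fold changes were below 0, with a median of -1.36 on the log2 scale, against 0.01 over all genes. Of the 10, 7 had an unadjusted p under 0.05, as did 994 of 15729 genes tested in either direction. The 10 genes are not 10 observations here either. Ngp then stood at -1.86 (SE 0.31) and Ltf at -1.87 (SE 0.35), the smallest edgeR FDR was 0.265, and Cxcr2 stood at 0.35. Nothing in the labels sets this library apart, and leaving it out is 1 of 5 such fits.

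In MPPs the 7 primary granule genes summed to 675 to 918 CPM with MTP10-HDL and 632 to 711 CPM with PBS, a range of 1.45-fold, against 6.89-fold for the neutrophil genes. Of the 7, 4 were highest in MTP10-HDL 2 and 1, Ctsc, in MTP10-HDL 3. Ctsg averaged 81.3 ± 24 CPM with MTP10-HDL (SD, n = 3) and 44.3 ± 1.7 CPM with PBS (SD, n = 2), and did not pass (log2 fold change 0.88, SE 0.28, edgeR FDR 0.667). Of 13 other late granule and oxidase genes, 10 were highest in MTP10-HDL 3, 9 had fold changes above 0 and 4 below, and none passed. Cybb, the catalytic subunit of the phagocyte oxidase, averaged 31.7 ± 15.8 CPM with MTP10-HDL and 70.8 ± 27.2 CPM with PBS (log2 fold change -1.16, SE 0.41, edgeR FDR 0.726).

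Of 16 tested genes of neutrophil receptors and effectors, 12 had fold changes above 0, against 52% of all genes, 2 of them at an unadjusted p under 0.05, against 2.17%. Trem1, an activating receptor of myeloid cells, averaged 4.94 ± 3.14 CPM with MTP10-HDL and 1.26 ± 0.342 CPM with PBS (log2 fold change 1.96, SE 0.69, edgeR FDR 0.726). Of the 8 transcription factors, 4 had fold changes above 0 and 4 below, and none passed. Cebpd averaged 7.21 ± 1.94 CPM with MTP10-HDL and 3.26 ± 0.105 CPM with PBS (log2 fold change 1.14, SE 0.42, edgeR FDR 0.736). Cebpe averaged 1.57 ± 1.12 CPM with MTP10-HDL and 2.76 ± 1.39 CPM with PBS (log2 fold change -0.83, SE 0.77, edgeR FDR 0.902). The 15 monocyte and macrophage markers summed to 440 to 547 CPM with MTP10-HDL and 704 to 706 CPM with PBS, and none was at 0 in all libraries. Of 8 tested erythroid markers, 7 had fold changes below 0 and 6 an unadjusted p under 0.05, against 4.06% of all genes in that direction. Of 9 B cell markers, 5 lay above 0 and 4 below. Genes of 1 list are not separate observations here either. The part of these markers in the neutrophil genes was not tested.

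Of 10 ligands, receptors and partners of these proteins, 7 were tested in each table and none passed. Slc22a17, a receptor for lipocalin 2, averaged 11.7 ± 2 CPM with MTP10-HDL (SD, n = 6) and 9.32 ± 2.53 CPM with PBS (SD, n = 7) in HSCs, a log2 fold change of 0.32 (SE 0.25, edgeR FDR 0.707). In MPPs it averaged 13 ± 3.24 CPM with MTP10-HDL and 21.3 ± 4.11 CPM with PBS (log2 fold change -0.71, SE 0.3, edgeR FDR 0.794). Ppbp, which codes for a platelet chemokine that Cxcr2 binds, averaged 5.64 ± 5.61 CPM with MTP10-HDL and 13.8 ± 17.7 CPM with PBS in HSCs (log2 fold change -1.3, SE 0.9, edgeR FDR 0.674). Lrp1, an uptake receptor for lactoferrin, averaged 18.3 ± 2.69 CPM with MTP10-HDL and 11.2 ± 7.5 CPM with PBS in MPPs (log2 fold change 0.7, SE 0.43, edgeR FDR 0.867).

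The difference between the responses of the 2 cell types was tested in a joint fit. The MPP response minus the HSC response ran from -0.95 (Camp, SE 1.2) to 0.09 (Mmp8) on the log2 scale, with an edgeR FDR of 1 for all 10 genes. It was below 0 for 9 of the 10, against 44.2% of all genes, and none reached an unadjusted p under 0.05, as 3.86% of genes did. The size again rested on MTP10-HDL 3 of the MPPs, without which Ltf stood at -2.88. The joint fit called 1 gene of 24470 (0.00409%), Gm43360, which is not among the 10 and is named because it is the single call. With standard errors of 0.94 (Cxcr2) to 1.5 (Retnlg), differences of the size seen here were not detectable.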

How the data were processed

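RNA of 18 libraries was analysed, and the 12 ATAC-seq samples were not analysed here. The authors deposited raw read counts per Ensembl gene, 1 table per cell type, with whole numbers throughout. Per the labels' protocols, HSC libraries came from amplified cDNA read as single 50-base reads, and MPP libraries were poly-A selected with insect carrier RNA. Per the submitters' processing notes, HSC reads passed through CASAVA 1.8.2 and STAR 2.5.2b, MPP reads through STAR 2.7.2a and DESeq2 1.24 in R 3.6.1, all on mm10. The labels name neither the counting tool nor its settings. HSC PBS columns carry the numbers 1 to 7 while the labels number 1 such sample 8, so these columns served as 1 group and keep their column numbers. MPP PBS libraries are numbered 2 and 3.

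The 2 tables had separate fits with edgeR 4.0.16 in R 4.3.3 (TMM scaling, filterByExpr defaults, quasi-likelihood F test, Benjamini-Hochberg over all genes tested, threshold 0.05), and the difference in a joint fit with 4 group means. Levels are CPM after TMM scaling. Correlations used log2 CPM with a prior count of 2 and 100000 permutations, of which 1e-05 is the smallest p. Kits and scaling differ between tables, so no level was compared across them. Treatment p-values weigh a difference against the spread between pools, while correlation p-values come from permuting the libraries. Counts were simulated with the same library sizes, with 100 genes changed by 2 on the log2 scale in each table. Of these, 98% were recovered in HSCs (15863 genes) and 87% in MPPs (14818 genes). Recovery was not computed for the neutrophil genes, so these rates do not give the chance of detecting a change in them. Their fitted log2 fold changes had SEs of 0.53 (Cxcr2) to 0.84 (Retnlg) in HSCs and 0.44 (Cxcr2) to 1 (Ltf) in MPPs. Alternatives used limma 3.58.1 and DESeq2 1.42.0, and figures and motif searches Python 3.11.15. Promoter windows are RefSeq's on GRCm38.p6, and only the 250 bases before the start were searched.

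The 10 genes, the companion lists and the alternatives were chosen with earlier results of these data known. The text names all 10, the 10 genes most alike in HSCs, and from each companion list up to 4 genes past the threshold or else up to 2 of smallest p, given as values that did not pass. A gene that this rule takes is not reported here. Genes set beside Ngp, and those named there, were chosen after values were seen. The 3 technical sets of HSC libraries are the 4 with the fewest detected genes, the 4 of the rest with the highest ribosomal RNA share, and the other 5.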

Additional observations from a re-analysis of the deposited data

Results flagged for a closer look

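One library stood apart from its group by Dixon's test at 95%. Chil3 was at 357 CPM in PBS 5, the highest of the 7 HSC PBS libraries, with the next at 163 CPM. The gap was 0.573 of the group's range, above the critical value of 0.568. The test was run on 20 groups, each of the 10 genes in each HSC treatment, and chance flags about 1 in 20.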

How the results depend on the processing

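None of the 10 genes passed an FDR of 0.05 under any alternative run in either table. In HSCs all 10 fold changes stayed above 0 under every alternative. The median was 0.86 with DESeq2 size factors, 0.94 with library totals, 0.83 with the technical sets as a block and 1.3 with limma voom. With limma voom 3 of the 10 had an unadjusted p under 0.05, as did 1383 of 16631 genes. Without the low-count filter 4 did (4720 of 47787 genes), and without PBS 5 3 did (1155 of 15938). With replicate number as a block 2 did (1002 of 15879), and without MTP10-HDL 5 1 did (1315 of 17247). Under the other settings none did. Over single libraries left out the median ran from 0.31 to 1.36. Over all genes, 0 were called in HSCs, 44 without the low-count filter, 90 with DESeq2's own test and 0 to 1 over single libraries left out. In MPPs 0 were called, 2 with library totals, 345 without the filter, 153 with DESeq2's test and 0 to 17 over single libraries left out. The joint fit called 1 gene, 4 without the filter and 0 to 2 over single libraries left out. The cause was not tested.

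In MPPs the direction depended on the method and the libraries. With limma voom, 2 of the 10 fold changes were above 0 and 8 below (median -0.52), and the log2 value was -0.81 for Ltf, -0.73 for Ngp, -0.46 for Chil3, -0.59 for Lcn2 and -0.03 for Mmp8. Over single libraries left out, it ran over -1.87 to 0.74 for Ltf, -1.57 to 0.22 for Camp, -1.86 to 0.65 for Ngp, -1.33 to 0.77 for Chil3, -1.51 to 0.92 for Lcn2, -1.02 to 0.33 for S100a8, -1.38 to 0.27 for S100a9, -0.84 to 1.41 for Mmp8 and -0.6 to 1.51 for Retnlg. The lowest value came without MTP10-HDL 3 for each of them. The difference between cell types ran over -2.39 to 0.09 for Lcn2, -1.68 to 0.62 for Mmp8 and -1.29 to 0.71 for Retnlg.

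Replicate numbers are shared between treatments, but same-numbered HSC libraries did not deviate together (correlations -0.185 to 0.192). No HSC library with MTP10-HDL correlated best with the PBS library of its own number, while PBS 2 and PBS 6 did with theirs. In MPPs the correlations were -0.168 and -0.029. With 2 PBS libraries, each taken against their mean, such values come in equal and opposite pairs and cannot decide the question. With the replicate block, HSCs gave 0 called genes and a median of 1.02 for the 10 genes. MPPs gave 43 called genes, with Ltf at -0.15, Ngp at -0.13 and S100a8 at 0.07. Retnlg in PBS 4 of the HSCs rests on 1 count.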

Other observations

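Of the 5 eosinophil markers tested in HSCs, 3 were lowest in PBS 4 and 1 in PBS 7, which were the lowest 2 libraries for all 10 neutrophil genes. Prg2, the major basic protein of eosinophil granules, was highest in PBS 2 at 122 CPM, a library with 470 CPM of the 10 neutrophil genes, and lowest in PBS 4 at 1 CPM. Between treatments, 4 of the 5 had fold changes below 0, where 47.7% of all genes were above 0, and none passed an FDR of 0.05. With 3 of the 5 lowest in the same library, these directions are not separate observations. Il5ra, the interleukin 5 receptor, averaged 5.79 ± 4.36 CPM with MTP10-HDL (SD, n = 6) and 16.4 ± 15.3 CPM with PBS (SD, n = 7), a log2 fold change of -1.5 (SE 0.59, edgeR FDR 0.498). In MPPs it averaged 5.71 ± 1.44 CPM with MTP10-HDL (SD, n = 3) and 13.3 ± 7.12 CPM with PBS (SD, n = 2), a log2 fold change of -1.21 (SE 0.43, edgeR FDR 0.726).

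The immature B cell gene Vpreb3 peaked at 16.5 CPM in PBS 5, 1 of the 3 HSC libraries with the highest neutrophil gene levels, while Ms4a1, a gene of mature B cells, peaked at 47.7 CPM in PBS 2. Of the platelet markers, Pf4 ranged from 162 CPM in MTP10-HDL 3 to 4.85 CPM in PBS 5, while Gp9 spanned 2.62-fold over the HSC libraries.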
